A study of Homo sapiens with 9 samples.

Results

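The matrix glycoprotein genes, those of the extracellular matrix that encode neither a collagen nor a laminin, were followed through H1975 cells, an established human lung adenocarcinoma line of epithelial type with mutant EGFR. They were the 10 genes FN1, TNC, THBS1, SPARC, FBLN1, FBLN2, FBN1, HSPG2, AGRN and NID1. The genes were picked by name and matched by symbol, and they are 10 of the 61544 genes in the count tables; all 10 passed the filter on low counts that left 18653 genes for testing. The list was drawn up with the difference between wild-type and NLS-mutated F-78 already known in these libraries. For that contrast the values of the 10 genes are therefore a description, without p-values.

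Total RNA was sequenced in 9 libraries, 3 from each of 3 groups. Every group, the vector control included, first received si78 for 24 h, a small interfering RNA whose target lies beyond the coding part of the GRP78 (HSPA5) message; GRP78 is the main chaperone of the endoplasmic reticulum. The cells then received for 48 h the empty plasmid pcDNA3 (vector), FLAG-tagged wild-type GRP78, F-78(WT), or the same protein with its nuclear localization signal mutated, F-78(NLS Mut). The latter groups are called WT and NLS Mut from here on. All 3 groups thus carried the knockdown, and no group with untouched GRP78 was compared here. The contrast between the 2 forms of F-78 asks what depends on entry of GRP78 into the nucleus, and the contrasts with vector ask what the re-expressed proteins change on the depleted background. The model is 1 cell line with transient plasmids, in which not every cell need carry the plasmid, and the labels do not say whether the 3 libraries of a group came from separate cultures. The p-values then measure the spread between libraries, which may be technical.

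Matrix glycoproteins are secreted proteins that cells hold on to and assemble around themselves. Fibronectin (FN1) is built into fibrils through integrins and binds collagens, heparan sulfate and other matrix proteins. Tenascin-C (TNC), thrombospondin-1 (THBS1) and SPARC are matricellular proteins, which tune adhesion and growth factor signals more than they carry load. Fibulins (FBLN1, FBLN2) and fibrillin-1 (FBN1) belong to elastic fibres and microfibrils. Perlecan (HSPG2), agrin (AGRN) and nidogen-1 (NID1) are basement membrane components, the first pair heparan sulfate proteoglycans and the last a linker between laminin and type IV collagen. In carcinomas most of this matrix is laid down by fibroblasts, but the tumour cells also make some of it themselves.

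In GENCODE 29 (GRCh38) the adhesive and matricellular genes span FN1 (ENSG00000115414.21) chr2:215360440-215436172 on the minus strand, TNC (ENSG00000041982.16) chr9:115019578-115118257 on the minus strand, THBS1 (ENSG00000137801.11) chr15:39581079-39599466 on the plus strand and SPARC (ENSG00000113140.11) chr5:151661096-151687165 on the minus strand. The genes of elastic fibres and microfibrils span FBLN1 (ENSG00000077942.19) chr22:45502238-45601135 on the plus strand, FBLN2 (ENSG00000163520.14) chr3:13549131-13638422 on the plus strand and FBN1 (ENSG00000166147.15) chr15:48408306-48645849 on the minus strand. The basement membrane genes span HSPG2 (ENSG00000142798.20) chr1:21822245-21937297 on the minus strand, AGRN (ENSG00000188157.15) chr1:1020123-1056118 on the plus strand and NID1 (ENSG00000116962.15) chr1:235975830-236065162 on the minus strand. Reads were counted over the exons of each gene, so the values do not separate splice forms such as those of fibronectin and tenascin-C.

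Since the study asked about transcription, the stretches just upstream of the start sites are shown for FN1, TNC and HSPG2, which differed between the 2 forms of F-78, and for THBS1, whose difference was not called. The sequences are those of RefSeq (GRCh38.p14), 250 bases that end 1 base before the annotated start, written 5′ to 3′. Capitals mark the E-box, CANNTG, which is the motif of the basic helix-loop-helix factors that ID proteins hold off DNA. They also mark the string ATATAAG, which resembles the core promoter element near many start sites and was picked after the sequences had been seen.
FN1 (chr2:215436069-215436318, minus strand): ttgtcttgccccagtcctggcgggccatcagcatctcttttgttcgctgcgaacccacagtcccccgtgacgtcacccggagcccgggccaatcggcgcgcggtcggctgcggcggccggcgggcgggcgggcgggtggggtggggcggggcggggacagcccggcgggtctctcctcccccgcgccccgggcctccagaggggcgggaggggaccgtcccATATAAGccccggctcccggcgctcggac
TNC (chr9:115118158-115118407, minus strand): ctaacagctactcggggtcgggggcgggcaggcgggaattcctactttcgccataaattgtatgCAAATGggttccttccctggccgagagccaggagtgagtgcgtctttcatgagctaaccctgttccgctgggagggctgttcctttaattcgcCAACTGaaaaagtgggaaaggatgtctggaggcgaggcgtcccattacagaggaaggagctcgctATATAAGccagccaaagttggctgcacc
HSPG2 (chr1:21937311-21937560, minus strand): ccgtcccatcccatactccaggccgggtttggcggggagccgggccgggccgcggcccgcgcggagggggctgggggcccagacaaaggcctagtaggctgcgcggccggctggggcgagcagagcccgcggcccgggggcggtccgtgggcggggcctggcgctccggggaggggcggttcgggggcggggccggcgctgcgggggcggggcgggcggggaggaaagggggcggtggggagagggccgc
THBS1 (chr15:39580829-39581078, plus strand): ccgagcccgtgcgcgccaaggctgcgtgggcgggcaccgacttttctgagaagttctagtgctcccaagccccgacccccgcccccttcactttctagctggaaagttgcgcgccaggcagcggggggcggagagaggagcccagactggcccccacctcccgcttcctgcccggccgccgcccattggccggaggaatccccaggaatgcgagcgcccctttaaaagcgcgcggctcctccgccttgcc
RefSeq windows of 300 bases, 250 before and 50 after the start, were matched for 9 of the 10 genes, with 2 start sites for FBLN2; AGRN was not matched. The E-box, a pattern that is the same on both strands, was found in 3 of the 9 genes. TNC held CAAATG at position -186 and CAACTG at -93, SPARC held CAGATG at -232, and FBN1 held CAGCTG at -132 and again at 18 (positions counted from the start site, with -1 the last base before it). No match was found in FN1, HSPG2, either window of FBLN2, THBS1, FBLN1 or NID1. In comparison, 68.7% of all 35116 such windows held at least 1 E-box, 17.9% held CAGCTG, 20.6% held CACCTG on either strand and 7.26% held CACGTG. The string ATATAAG was found in FN1 at -29 and TNC at -28, and in 1.92% of all windows on either strand. The GC content of the members' windows ran from 57.3% in TNC to 83.3% in HSPG2, against a median of 58.7% over all windows. These matches are a description of letters in a short window and say nothing of which factor binds there. The outermost GENCODE start of FN1 and of TNC lies inside the window shown.

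Each library had 17671055 to 27476298 counted reads. HSPA5, the depleted and re-expressed gene, stood at 377.72 CPM (counts relative to the TMM-scaled library total, the level used throughout) on average in vector, 4960.7 with NLS Mut and 5663.5 with WT. Against vector it was higher by 3.91 ± 0.06 (SE) on the log2 scale with WT and by 3.71 ± 0.06 with NLS Mut (edgeR adjusted p = 2.2e-28 and 7.1e-28). Between the 2 forms of F-78 it differed by 0.19 ± 0.05 (edgeR adjusted p = 0.079), and their libraries overlapped. The 6 epithelial markers EPCAM, KRT7, KRT8, KRT18, KRT19 and CDH1 each stood at 184.5 CPM or more in every library, as the cell type label says. Of 8 fibroblast markers, DCN was at 0 in every library, LUM, POSTN, PDGFRA, COL3A1 and THY1 stayed at or under 0.5065 CPM, ACTA2 at 1.67 to 3.03 CPM, and PDGFRB at 6.90 to 11.7 CPM. Of 5 endothelial markers, PECAM1 reached 5.74 CPM and VWF 0.6005 CPM, and of 5 immune markers CD68, LYZ and CD3E were at 0 throughout, PTPRC reached 0.274 CPM and CD14 stood at 4.75 to 9.54 CPM.

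The 10 genes spanned a wide range of levels within the same cells. Divided by the length of the longest coding transcript, the mean level in vector was 146.7 CPM per kb for FN1, 112.6 for SPARC, 104.2 for TNC and 87.9 for AGRN. THBS1 followed at 47.0, FBLN2 at 38.5 and HSPG2 at 18.2 CPM per kb. FBLN1 was at 1.71, FBN1 at 0.20 and NID1 at 0.12 CPM per kb. So 7 of the genes stood above 100 CPM in every library, while FBLN1, FBN1 and NID1 stayed under 10 CPM. In vector the libraries of SPARC and TNC overlapped, as did those of FBN1 and NID1, and every other pair of neighbours in this order was apart. The order was the same in WT and NLS Mut, where SPARC and TNC no longer overlapped; FBN1 and NID1 overlapped in WT only. Together the 10 genes took 0.389% to 0.411% of the TMM-scaled counts in vector, 0.413% to 0.418% in WT and 0.349% to 0.357% in NLS Mut. The ranges of the 3 groups did not meet, but the gap between vector and WT was smaller than the spread within vector. The genes were listed with the difference between WT and NLS Mut known.

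**Figure D1:**
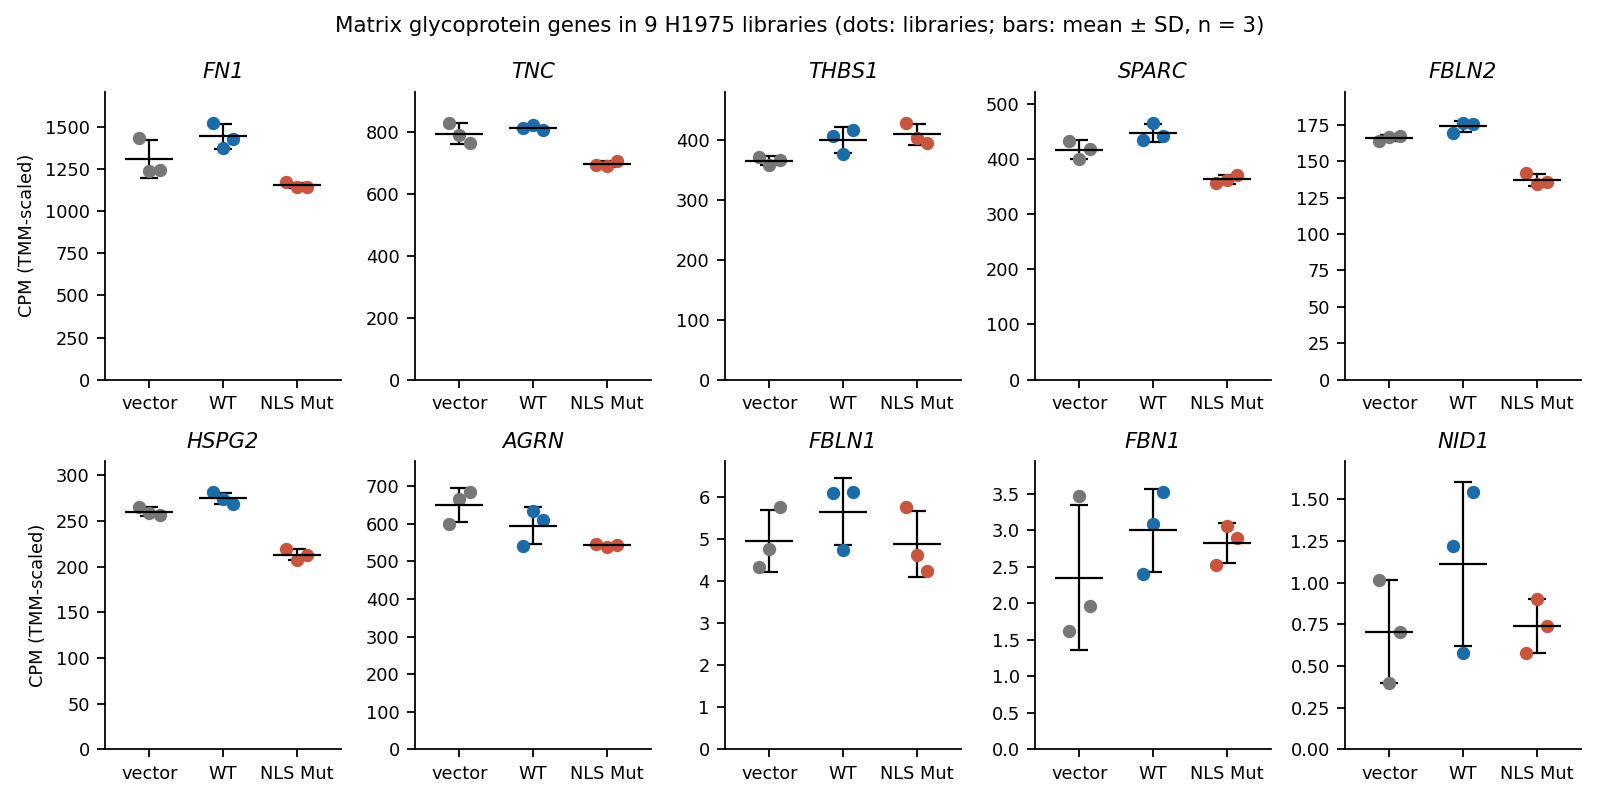
TMM-scaled CPM (y axis, from 0) of each of the 10 genes in the vector, WT and NLS Mut libraries (x axis); dots are libraries and bars give the mean ± SD of 3. The NLS Mut libraries lie lowest for FN1, TNC, SPARC, FBLN2 and HSPG2, while on average THBS1 is lowest and AGRN highest in vector.

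Between the 2 forms of F-78, 5 of the 10 genes were higher with WT: HSPG2, FBLN2, FN1, SPARC and TNC. The gaps ran from 16.7% for TNC to 28.9% for HSPG2. None of the 10 was called lower. At the same threshold (edgeR adjusted p under 0.05) 0.3% of all genes tested were called higher with WT. The same 5 genes had all 3 WT libraries above all 3 NLS Mut libraries, a pattern that 8.25% of all genes tested showed. The median of the 10 log2 fold changes was 0.26, and that of all genes tested was -0.01. As this contrast was known when the genes were listed, nothing is read from these counts.

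The comparison of NLS Mut with vector shares its NLS Mut libraries with that contrast, so its values are not independent of the choice of genes. Here 4 of the 10 genes fell with NLS Mut, HSPG2, FBLN2, AGRN and TNC, and none rose. None of these 4 was called with a correction for GC content and length (log2 fold changes of -0.16 to -0.09) or without NLS Mut replicate 2. By edgeR, 0.499% of all genes tested were called lower, and 0.114% without NLS Mut replicate 2. DESeq2 called 5 of the 10 lower, and 204 of all 18653 genes tested. An unadjusted edgeR p under 0.05 was reached by 7 of the 10. The share of all genes at that unadjusted p was not computed, here or in the comparisons and lists below. All 3 NLS Mut libraries lay below all 3 vector libraries for 6 of the 10 genes, FN1 and SPARC in addition, against 8.82% of all genes tested. THBS1 went the other way, with its NLS Mut libraries above all of vector. The median log2 fold change of the 10 was -0.18, against 0.00 over all genes tested.

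For WT against vector, edgeR called none of the 10 genes; 3 of them (FN1, THBS1 and AGRN) had an unadjusted p under 0.05, and DESeq2 also called none. Over all genes tested, 0.558% were called in either direction. This comparison shares its WT libraries with the contrast known when the genes were listed, so its values are not independent of that choice. The log2 fold change was above 0 for 9 of the 10 genes, with a median of 0.12 against 0.00 over all genes tested, where 49.5% were above 0. Among the 9, FBLN1, FBN1 and NID1 had standard errors from 0.205 to 0.566. For THBS1, SPARC, FBLN2 and HSPG2 all 3 WT libraries lay above all 3 vector libraries, which 6.53% of all genes tested did. Both comparisons with vector use the same 3 vector libraries, so their values stand side by side below and are not compared with each other.

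**Figure D2:**
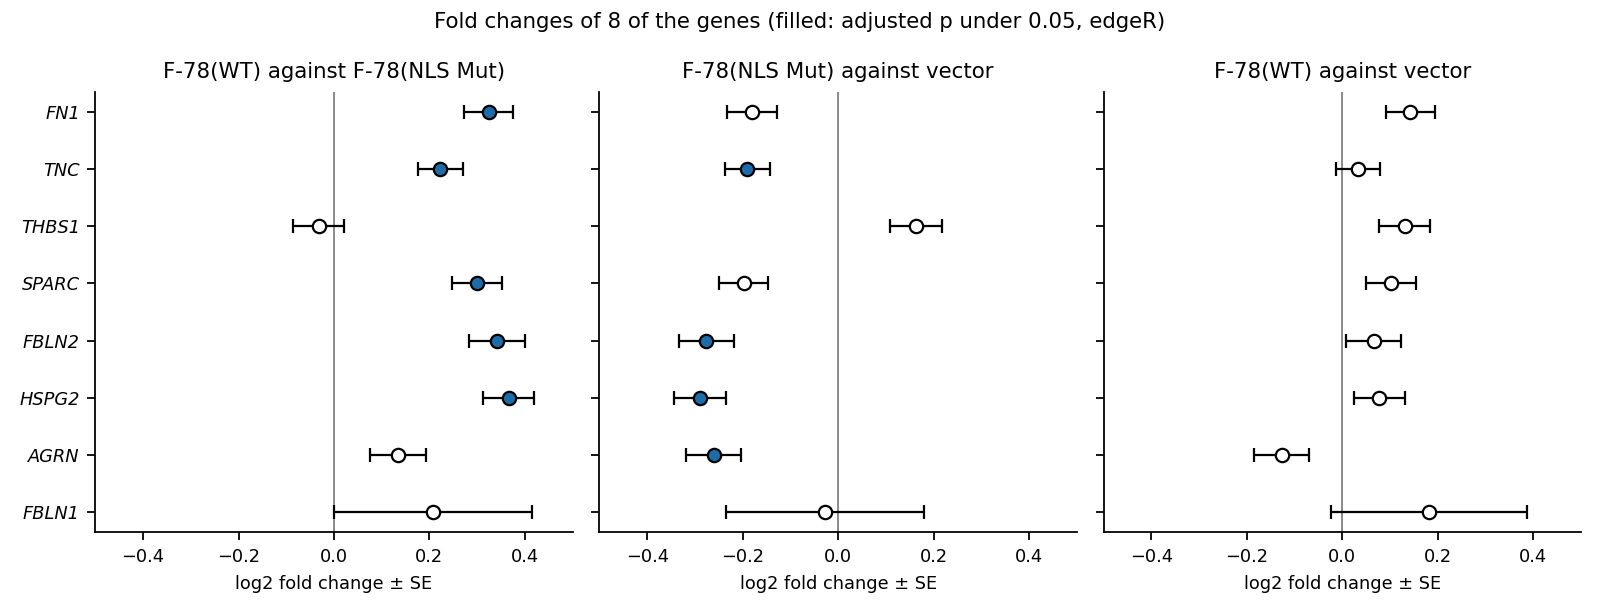
Log2 fold changes (x axis) with standard errors for FN1, TNC, THBS1, SPARC, FBLN2, HSPG2, AGRN and FBLN1 in the 3 comparisons; filled points had an edgeR adjusted p under 0.05 over all genes tested. FBN1 and NID1, whose standard errors ran from 0.304 to 0.579, are left out. The left panel holds 5 filled points above 0, the middle panel 4 below 0 and the right panel none.

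FN1, the most abundant of the 10, stood at 1436, 1240.1 and 1242 CPM in vector replicates 1 to 3. In WT it was at 1525, 1375 and 1428 CPM, and in NLS Mut at 1170.5, 1142 and 1146 CPM. The NLS Mut libraries were the lowest of the 9, and vector replicate 1 fell among the WT libraries. The log2 fold change of WT against NLS Mut was 0.32 ± 0.05 (SE). Against vector it was -0.18 ± 0.05 for NLS Mut (edgeR adjusted p = 0.11) and 0.14 ± 0.05 for WT (edgeR adjusted p = 0.24), neither past the threshold. The last call depended on vector replicate 1: without it the difference of WT from vector was 0.22 with an edgeR adjusted p of 0.00074. Leaving out that library raised the share of all genes called in this comparison from 0.558% to 6.33%.

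TNC, whose protein is made at wound edges and in tumour stroma, stood at 832, 790.1 and 767 CPM in vector. With WT it was at 813, 823 and 808 CPM, inside the range of vector, and with NLS Mut at 694, 691 and 708 CPM, under all other libraries. Against vector it fell by 12.4% with NLS Mut (log2 fold change -0.19 ± 0.05, edgeR adjusted p = 0.046), close to the threshold. That call was lost without any 1 of the NLS Mut libraries, without vector replicate 2 or 3, or without WT replicate 3, at log2 fold changes of -0.22 to -0.19 and edgeR adjusted p from 0.057 to 0.23. WT differed from vector by 0.03 ± 0.05 (edgeR adjusted p = 0.86). Between the 2 forms of F-78 the log2 fold change was 0.22 ± 0.05, and over the 9 fits that each left out a library it stayed between 0.22 and 0.24, with the call lost without WT replicate 1 or 3 or any 1 NLS Mut library.

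SPARC, a collagen-binding matricellular protein, stood at 433, 399 and 418 CPM in vector, at 434, 466 and 442 CPM in WT and at 356, 362 and 372 CPM in NLS Mut. The 3 groups did not overlap, although the lowest WT library was less than 1 CPM above the highest vector library. WT was 23.1% above NLS Mut (log2 fold change 0.30 ± 0.05). Against vector, the log2 fold change was -0.20 ± 0.05 for NLS Mut (edgeR adjusted p = 0.071) and 0.10 ± 0.05 for WT (edgeR adjusted p = 0.45). The first of these was called by DESeq2 (adjusted p = 0.0071) and by edgeR without vector replicate 1 (-0.18, edgeR adjusted p = 0.021). In that comparison DESeq2 called 204 of all 18653 genes tested lower. Without vector replicate 1, edgeR called 2.66% of all genes lower, against 0.499% with all 9 libraries. On SPARC, 7.89% of the exonic bases overlap an antisense gene, and the counts carry no strand, so reads there could not be assigned to 1 gene of the pair. With counts taken per strand and then summed, SPARC had 5.87% more reads than in the counts used. The figure was 6.03% for TNC, 15.3% for HSPG2, 21.9% for THBS1 and 14.3% over all genes.

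THBS1, which activates latent TGF-β and restrains vessel growth, did not follow the other 3. It stood at 371, 358 and 367 CPM in vector, at 407, 377 and 417 CPM in WT and at 429, 403 and 396 CPM in NLS Mut. Both forms of F-78 thus lay above vector in every library and overlapped each other. The log2 fold change against vector was 0.16 ± 0.05 for NLS Mut (edgeR adjusted p = 0.17) and 0.13 ± 0.05 for WT (edgeR adjusted p = 0.32), and that between the forms was -0.03 ± 0.05. Without vector replicate 1, NLS Mut against vector passed the threshold (0.17, edgeR adjusted p = 0.044), in a fit that also called 2.66% of all genes lower.

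FBLN2, a fibulin of elastic fibres and basement membranes, had the tightest vector libraries of the 10, at 164, 167 and 167.5 CPM. It reached 169, 177 and 176 CPM with WT and 142, 134 and 136 CPM with NLS Mut, and the 3 groups did not overlap. Against vector it fell by 17.4% with NLS Mut (log2 fold change -0.28 ± 0.06, edgeR adjusted p = 0.018), whereas WT differed from vector by 0.07 ± 0.06 (edgeR adjusted p = 0.73). The drop kept its size, -0.30 to -0.27, but lost the call without any 1 of the NLS Mut libraries or without vector replicate 2 or 3 (edgeR adjusted p from 0.056 to 0.15). WT was 26.8% above NLS Mut, a log2 fold change of 0.34 ± 0.06.

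The other 2 genes of elastic fibres and microfibrils were close to the lower limit of what could be tested. FBLN1 stood at 4.34, 4.78 and 5.77 CPM in vector, at 6.10, 4.74 and 6.12 CPM in WT and at 5.77, 4.63 and 4.25 CPM in NLS Mut. FBN1 ranged from 1.62 to 3.47 CPM in vector, from 2.40 to 3.52 CPM in WT and from 2.52 to 3.06 CPM in NLS Mut, on 35 to 96 reads a library. In both genes the groups overlapped in every comparison. The log2 fold change of WT against NLS Mut was 0.21 ± 0.21 for FBLN1 and 0.08 ± 0.31 for FBN1, so at this depth a change of the size seen in FBLN2 was not detectable in either. In both comparisons with vector their edgeR adjusted p ran from 0.73 to 0.98.

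HSPG2, the core protein of perlecan, had the clearest pattern of the basement membrane genes. It stood at 266, 259 and 256 CPM in vector, at 282, 274 and 269 CPM in WT and at 219, 207 and 213 CPM in NLS Mut, with no overlap between groups. Against vector it fell by 18.1% with NLS Mut (log2 fold change -0.29 ± 0.05, edgeR adjusted p = 0.006), and WT was 5.55% above it (0.08 ± 0.05, edgeR adjusted p = 0.62). The fall was called without any 1 library except NLS Mut replicate 2, where it was -0.28 with an edgeR adjusted p of 0.087. WT was above NLS Mut by 0.37 ± 0.05, the widest gap of the 7 abundant genes. A neighbouring gene on the other strand covers 11.7% of its exonic bases.

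AGRN, the agrin of neuromuscular and epithelial basement membranes, was highest in vector, at 599, 667 and 684 CPM. WT had 540.15, 634 and 611 CPM and overlapped vector, and NLS Mut had 547, 538 and 542.5 CPM and lay below it. Against vector it fell by 16.6% with NLS Mut (log2 fold change -0.26 ± 0.06, edgeR adjusted p = 0.023). Without any 1 of the NLS Mut libraries, or without vector replicate 2 or 3, the difference was -0.27 to -0.23 and not called (edgeR adjusted p from 0.096 to 0.15). WT differed from vector by -0.13 ± 0.06 (edgeR adjusted p = 0.38), and this difference was -0.18 and called without vector replicate 1 (edgeR adjusted p = 0.017) but 0.058 with the correction for GC content described below. Without vector replicate 1, 6.33% of all genes were called in this comparison, against 0.558% with all 9 libraries. WT replicate 1, at 540.15 CPM, lay among the NLS Mut libraries, and the 2 forms of F-78 differed by 0.13 ± 0.06.

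NID1 was counted 11 to 32 times a library, or 0.398 to 1.54 CPM. Its log2 fold changes were 0.09 ± 0.58 for NLS Mut against vector, 0.66 ± 0.57 for WT against vector and 0.57 ± 0.57 between the 2 forms, and all 3 groups overlapped. Nothing can be said of its direction at this depth.

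The libraries differed in how their levels followed the GC content of the genes, and the 4 calls against vector changed when this was corrected. The slope of log2 level on the GC content of a gene was 0.10 and 0.11 per 10 percentage points in vector replicates 2 and 3, against -0.04 in vector replicate 1, -0.08 to 0.03 in WT and -0.04 to -0.02 in NLS Mut. The GC content of the longest coding transcript was 67.5% in AGRN, 64.5% in HSPG2, 61.9% in FBLN2, 54.0% in TNC, 50.2% in FN1, 47.3% in SPARC and 45.6% in THBS1. With a correction for GC content and length, the log2 fold change of NLS Mut against vector was -0.16 in HSPG2, -0.15 in FBLN2, -0.15 in TNC and -0.09 in AGRN, none of them called (edgeR adjusted p = 0.21, 0.15, 0.055 and 0.41). In that fit FN1 (-0.16) and SPARC (-0.20) were called instead (edgeR adjusted p = 0.047 and 0.012), and 0.424% of all genes were called lower. Over all genes the correction turned the split of calls from 55 higher and 93 lower to 234 higher and 79 lower.

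Vector replicate 1 had a slope like that of the F-78 libraries. It was above all 3 NLS Mut libraries in FN1, TNC, SPARC, FBLN2, HSPG2 and AGRN. It was above vector replicates 2 and 3 in FN1, TNC, SPARC, THBS1 and HSPG2, and below both of them in FBLN2 and AGRN. A fit with this as the lone vector library, added after the data were seen, assumes that it varies like the other groups. It gave -0.32 for FN1, -0.32 for HSPG2, -0.26 for SPARC and -0.26 for TNC, all 4 called (edgeR adjusted p = 0.00018, 0.01, 0.037 and 0.0083; 0.189% of all genes were called lower), and -0.26 for FBLN2 and -0.15 for AGRN, not called (edgeR adjusted p = 0.15 and 0.5). The difference between the 2 forms of F-78 draws on the vector libraries only through scaling, filtering and the shared estimate of spread. Leaving out 2 of them could therefore hardly move it. With the correction the difference was 0.36 in HSPG2, 0.34 in FBLN2, 0.30 in FN1, 0.28 in SPARC and 0.21 in TNC.

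**Figure D3:**
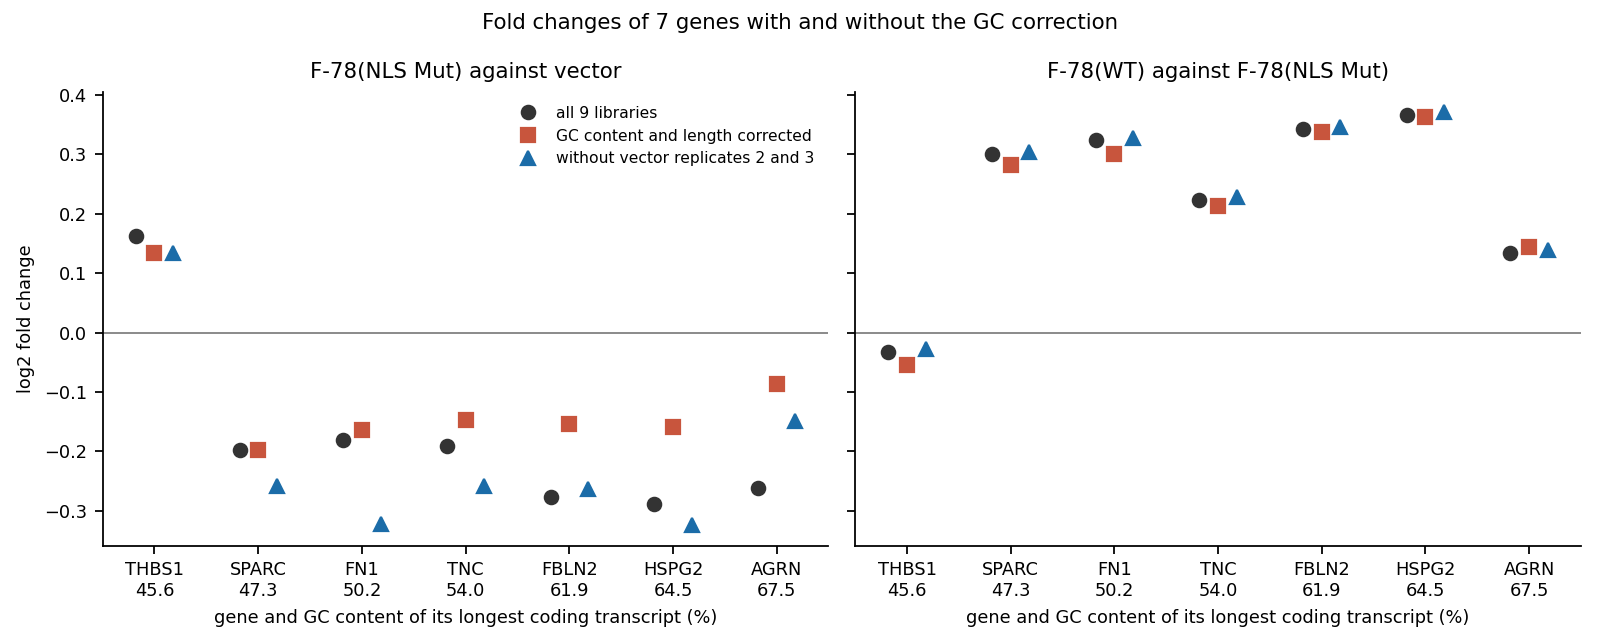
Log2 fold changes (y axis) of 7 genes, ordered by the GC content of the longest coding transcript (x axis, 45.6% to 67.5%), in the fit of all 9 libraries, with the GC and length correction, and without vector replicates 2 and 3. For NLS Mut against vector (left) AGRN goes from -0.26 to -0.09 with the correction and SPARC stays at -0.20. For WT against NLS Mut (right) the 3 values of each gene lie close together. Vector libraries enter that contrast only through scaling, filtering and the shared estimate of spread, so leaving 2 out could hardly move it.

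Other matrix genes were taken from lists that, like the 10 genes, were drawn up with earlier results of these libraries known. Between the 2 forms of F-78 their values are therefore also given without p-values. Of 70 other matrix glycoprotein genes 48 were tested. LTBP3, which binds latent TGF-β, and MFGE8, an integrin ligand, fell with NLS Mut against vector, where edgeR called 0.499% of all genes tested lower. LTBP3 went from 157.5 ± 6.16 (SD, n = 3) to 125.2 ± 4.25 CPM (log2 fold change -0.33 ± 0.06 SE, edgeR adjusted p = 0.0063) and MFGE8 from 48.9 ± 2.45 to 37.6 ± 2.13 CPM (-0.38 ± 0.09 SE, edgeR adjusted p = 0.024). With WT against vector 2 others rose, EFEMP1, a fibulin (0.25 ± 0.06, edgeR adjusted p = 0.039), and TGFBI, an integrin-binding protein induced by TGF-β (0.18 ± 0.04, edgeR adjusted p = 0.032). Of all 18653 genes tested, 40 were called higher with WT against vector. EFEMP1 averaged 208.4, 247.3 and 232.0 CPM and TGFBI 1976, 2239 and 2080.0 CPM in vector, WT and NLS Mut. Between the 2 forms of F-78 edgeR called none of the 48, with 13 at an unadjusted p under 0.05 and 1 called by DESeq2. The median log2 fold change of the 48 was 0.12 in that contrast, with 34 above 0, where 48.9% of all genes tested were above 0. It was -0.15 for NLS Mut against vector and -0.04 for WT against vector. With the correction for GC content and length, LTBP3 (-0.15, edgeR adjusted p = 0.25) and MFGE8 (-0.26, edgeR adjusted p = 0.12) were no longer called. EFEMP1 (0.219, edgeR adjusted p = 0.011) and TGFBI (0.244, edgeR adjusted p = 0.00024) stayed called for WT against vector. TGFBI was then also called higher with NLS Mut against vector (0.143, edgeR adjusted p = 0.042). Of 24 matrix proteoglycan genes 10 were tested and edgeR called none in any comparison, with 1 or 2 at an unadjusted p under 0.05; DESeq2 called 1, for WT against vector.

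Among the receptors that bind these proteins (integrins, syndecans, dystroglycan, LDL receptor relatives and others), 20 of 26 genes were tested. Over all genes tested, edgeR called 0.3% higher with WT than with NLS Mut and 0.499% lower with NLS Mut against vector. LRP1, which takes up thrombospondin and other ligands, was higher with WT than with NLS Mut, at 318.4 ± 7.89 against 243.7 ± 12.1 CPM (SD, n = 3; log2 fold change 0.39 ± 0.06 SE). It averaged 279.3 CPM in vector, and neither comparison with vector was called (0.19 for WT and -0.20 for NLS Mut), although WT against vector was with the GC and length correction (0.25, edgeR adjusted p = 0.0097). CALR, a chaperone of the endoplasmic reticulum that also serves as a thrombospondin co-receptor at the cell surface, fell with NLS Mut against vector (-0.23 ± 0.05, edgeR adjusted p = 0.018). It was at 2072 ± 183 CPM in vector, 1834 ± 37.6 in WT and 1765 ± 49.9 in NLS Mut, where both forms of F-78 lay lower on average. With the GC and length correction CALR stayed called in NLS Mut against vector (-0.158, edgeR adjusted p = 0.031). Of the 20, 18 had a log2 fold change above 0 between the forms, with a median of 0.11, where 48.9% of all genes tested were above 0.

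Perlecan and agrin carry heparan sulfate, so the enzymes that make and trim it were counted too, 24 of 31 genes being tested. One was called, HS6ST2, a 6-O-sulfotransferase, and it was lower with WT than with NLS Mut, at 33.5 ± 1.45 against 45.6 ± 2.52 CPM (SD, n = 3; log2 fold change -0.45 ± 0.09 SE). Vector lay between them at 37.2 ± 1.17 CPM. Between the 2 forms of F-78, edgeR called 38 of all 18653 genes tested lower with WT. Neither comparison with vector called any of the 24 by edgeR, with 5 at an unadjusted p under 0.05 for NLS Mut and 4 for WT, and DESeq2 called 2 and 0. The medians of the list were -0.02, 0.06 and 0.00 for WT against NLS Mut, NLS Mut against vector and WT against vector.

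**Figure D4:**
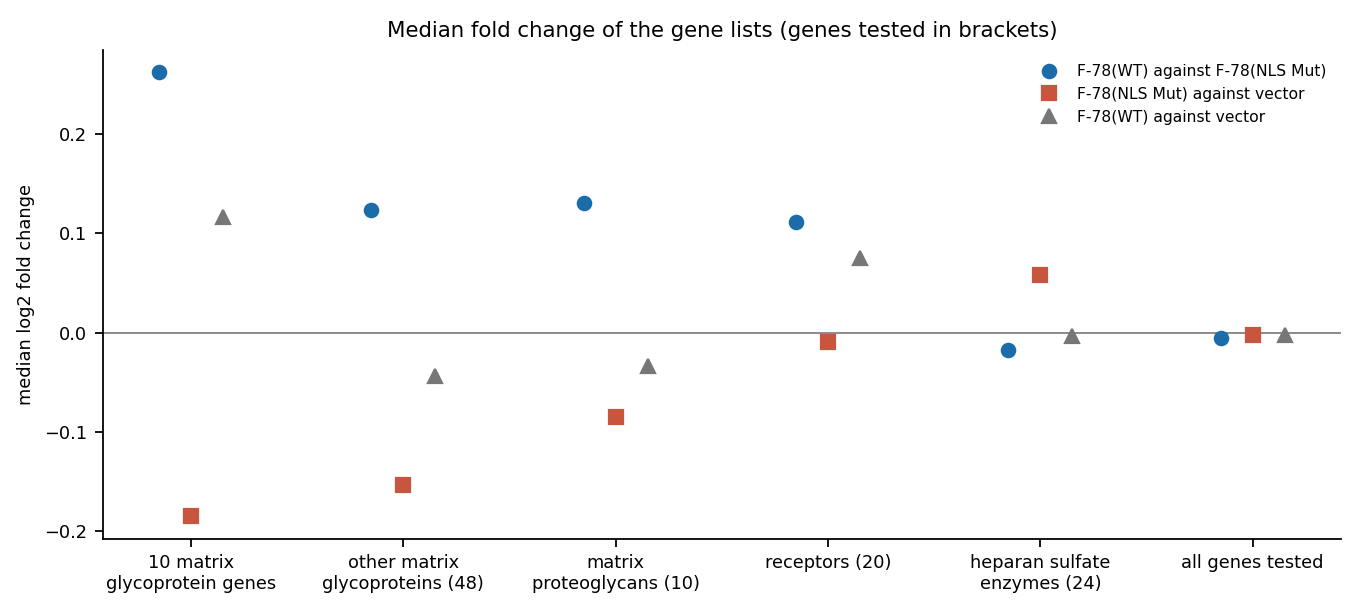
Median log2 fold change (y axis) of the 10 genes, of 4 other lists with the number of genes tested, and of all genes tested (x axis), in the 3 comparisons. The 10 genes, listed with the first contrast known, have medians of 0.26, -0.18 and 0.12, the heparan sulfate enzymes lie within 0.06 of 0, and all genes tested lie within 0.01 of 0.

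Of the 6 epithelial markers, 2 were called between the 2 forms of F-78 and 1 in NLS Mut against vector. The shares of all genes tested were 0.3% called higher with WT between the forms and 0.499% called lower with NLS Mut against vector. CDH1 (E-cadherin) averaged 307.0 CPM in vector, 311.3 in WT and 257.6 in NLS Mut, and was called in NLS Mut against vector (-0.25 ± 0.06, edgeR adjusted p = 0.044) and between the forms (0.27 ± 0.06). KRT19 was called between the forms (0.23 ± 0.05). With the GC and length correction CDH1 stayed called in NLS Mut against vector (-0.235, edgeR adjusted p = 0.0087). KRT19 was then also called in WT against vector (0.237, edgeR adjusted p = 0.0064). Of the other 4, KRT8 and KRT18 were above 0 between the forms and EPCAM and KRT7 below, none called. The 6 epithelial markers summed to 4448 to 5107 CPM in vector, 4771 to 4846 in WT and 4357 to 4557 in NLS Mut. The 8 fibroblast markers summed to 9.25 to 12.3, 11.9 to 15.2 and 9.18 to 11.1 CPM in the same order, most of it PDGFRB, and neither of the 2 that were tested was called. The 5 endothelial markers summed to 5.87 to 7.33, 7.82 to 8.87 and 6.12 to 7.82 CPM, and the 5 immune markers to 7.74 to 8.87, 6.94 to 9.54 and 5.02 to 9.18 CPM. The part of these markers in the results of the matrix genes was not tested. In a bulk library, fewer cells that make a message and less message in each cell cannot be told apart.

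The 7 abundant genes were compared with the mean standardized profile of the 10 over the 9 libraries. The Pearson correlation of a gene with that profile, of which it is itself a part, was 0.92 for FBLN2, 0.91 for HSPG2, 0.89 for FN1, 0.88 for SPARC and 0.85 for TNC, but 0.40 for AGRN and -0.03 for THBS1. Among the 10064 other genes that averaged 10 CPM or more, the 5 closest to that profile were C4A (0.98), COL1A2 (0.97), COL12A1 (0.96), C3 (0.96) and AKR1C3 (0.95). COL1A2 and COL12A1 are fibrillar and fibril-associated collagen chains, and C3 and C4A are complement proteins; C4A has a near-identical copy, so its count is uncertain. COL1A2 was at 171.7 ± 7.98 CPM in vector, 197.0 ± 5.83 in WT and 134.9 ± 7.98 in NLS Mut, and C3 at 589.6 ± 15.8, 659.2 ± 6.44 and 471.7 ± 26.4 CPM (SD, n = 3). These correlations are descriptions over libraries that share the group differences used in listing the 10 genes.

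Within a group some genes deviated together and others did not. In vector replicate 1 the deviation from the group mean was 0.14 for FN1, 0.06 for TNC, 0.06 for SPARC and 0.03 for HSPG2 on the log2 scale, but -0.12 for AGRN. In WT replicate 1 it was 0.08 for FN1, 0.04 for HSPG2 and -0.14 for AGRN. The coefficient of variation in NLS Mut was 0.814% for AGRN, 1.31% for TNC and 1.34% for FN1, and in vector it was 6.95%, 4.12% and 8.63%. SPARC also spread more widely in vector, at 4.05% against 2.16% in NLS Mut. The other abundant genes went the other way. The coefficient was 1.14% in vector and 2.91% in NLS Mut for FBLN2, 1.87% and 2.69% for HSPG2, and 1.93% and 4.30% for THBS1.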

How the data were processed

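RNA-Seq counts were analysed for 9 libraries of H1975 cells, 3 each of vector, WT and NLS Mut, grouped by their labels. The deposited values are raw read counts per gene that the authors made with STAR 2.7.9a on GRCh38.p14, per the submitters' processing notes, which also name DESeq2 1.36.0; the gene annotation release is not given in the sources used here. Counts taken without regard to strand were used, as 50.6% to 51.9% of reads fell on the forward strand. Summary lines that name no gene (27.6% to 30.7% of reads) were left out. Symbols were paired with 61445 of the 61544 identifiers, and coordinates, length and GC content came from GENCODE 29, which held 58342 of them; length and GC content are those of the longest coding transcript.

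Counts were fitted with edgeR 4.0.16 (R 4.3.3) by the quasi-likelihood test over all 9 libraries, with TMM scaling, filterByExpr (18653 genes kept) and Benjamini-Hochberg adjustment over all of them at 0.05. The standard error is the fold change over the root of F. CPM are TMM-scaled. The correction for GC content and length used a loess fit with a span of 0.3 per library. With 3 libraries against 3, a permutation of labels cannot give a two-sided p under 0.1, so none is reported. The median coefficient of biological variation was 11.2%. The fit was tested on simulated data. Alternatives were DESeq2 1.42.0, other scalings, filters and strand columns, 2 groups alone, a replicate block, the GC and length correction, and each library left out.

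Named genes were the 10 members, called genes of the fixed lists, the 5 genes most like the mean profile (log2 of CPM + 0.1), and HSPA5. The members and lists were chosen with earlier results of these data known. Promoter windows are those of RefSeq; protein sequences were not used here.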

Additional observations from a re-analysis of the deposited data

Results flagged for a closer look

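For 5 of the 10 genes every WT library was above the mean of vector and every NLS Mut library below it. The share of all genes tested with this pattern was not computed. The pattern requires all 3 WT libraries above all 3 NLS Mut libraries, which 8.25% of all genes tested showed, so its share cannot be larger. These are also the 5 genes called higher with WT in the contrast known beforehand, so nothing is read from their number. The log2 fold changes against vector were 0.14 and -0.18 for FN1, 0.066 and -0.28 for FBLN2, 0.10 and -0.20 for SPARC, 0.033 and -0.19 for TNC, and 0.078 and -0.29 for HSPG2, with WT first. None of the WT values was called by edgeR, and those of NLS Mut were called for FBLN2, TNC and HSPG2. A test of the difference between the 2 effects is the contrast of WT with NLS Mut, which was known when the genes were listed, so no test of it is given here.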

How the results depend on the processing

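Over 19 alternatives, the count of genes called higher with WT than with NLS Mut was 4 to 5; the genes were listed with this contrast known, so the count is no sign of stability. For NLS Mut against vector 4 genes were called; the correction for GC content and length gave 2, leaving out 1 library gave 0 (without NLS Mut replicate 2) to 6 (without vector replicate 1, THBS1 being higher), and the other alternatives gave 3 to 5. For WT against vector the count was 0, and 0 to 2 when 1 library was left out, the 2 coming without vector replicate 1. These counts go with those over all genes: for NLS Mut against vector 148 were called, 33 without NLS Mut replicate 2 and 1002 without vector replicate 1, and for WT against vector 104 and, without vector replicate 1, 1256. Directions turned only in values that were not called with all 9 libraries. For NLS Mut against vector, FBLN1 went from -0.027 to 0.069 with the correction, to 0.16 without vector replicates 2 and 3 (added after the data were seen), and from -0.17 to 0.090 with 1 library left out. NID1 went from 0.09 to -0.45 without those 2 libraries and ranged from -0.21 to 0.42 with 1 left out. For WT against vector, TNC was -0.031 without those 2 libraries and AGRN 0.058 with the correction. Between the forms, THBS1 ranged from -0.056 to 0.019 and FBN1 from -0.0355 to 0.23 with 1 library left out. The cause of these shifts was not tested. NID1 was not tested under a filter of a mean of 1 CPM.

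Replicate numbers are shared by the groups. Deviations of libraries of the same number correlated little over all genes (r from -0.024 to 0.059). Such values cannot tell whether they shared a culture or a batch, which the labels do not say. The replicate block called 5 of the genes for NLS Mut against vector, 0 for WT against vector and 5 between the forms. Over all genes it called 230, 232 and 212, against 148, 104 and 94 without it, and DESeq2 called 430, 262 and 316.

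FBLN1, FBN1 and NID1 were counted too few times for changes of the size seen in the other genes.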
